A study of Mus musculus with 24 samples.

Results

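Hippocampal transcripts of 10 genes were followed across 4 genotypes of mice. They encode the TTT complex (Telo2, Tti1 and Tti2), kinases of the PIKK family that it serves (Atm, Atr and Mtor) and subunits of the replicative DNA polymerases delta and epsilon (Pold1, Pold2, Pold3 and Pole). The genes were chosen by symbol, all 10 were found among the 36605 genes of the count table, and all 10 passed the filter on low counts in every comparison. They were chosen because Telo2 and Pold1 were lower in mice that had lost Egr1, so the values of these 2 genes in that contrast are given as a description without a test. The question was whether the partners and the client kinases were lower too.

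RNA was measured in whole hippocampus of 24 adult mice, 3 females and 3 males of each genotype. Egr1cKO mice (Egr1fNesCre+) carried a floxed Egr1 allele (strain Egr1_tm1a_A04, C57BL/6 N-Egr1/Tcp) and the Nestin-Cre transgene. Egr1fNesCre- mice had floxed Egr1 (also labelled ff) alone, Egr1wtNesCre+ mice the transgene alone, and Egr1wtNesCre- mice neither. Nestin-Cre is active in neural progenitors, so the deletion reaches neurons and glia and is not limited to the hippocampus. Egr1 itself was at 4.85 to 10.2 CPM (the unit of level used throughout, counts scaled to library size with the TMM factors of edgeR) in the 6 Egr1cKO mice and at 47.6 to 149 CPM in the other 18.

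The TTT complex is a co-chaperone. With the R2TP complex and HSP90 it folds and stabilises newly made PIKK proteins, which include the DNA damage kinases ATM and ATR and the growth kinase mTOR, so that a loss of TELO2 protein is known to lower the kinase proteins rather than their transcripts. DNA polymerase delta and epsilon copy the nuclear genome in dividing cells and also fill repair gaps in cells that no longer divide, which most hippocampal cells are. EGR1 is an activity-induced zinc finger transcription factor that binds GC-rich sites in promoters.

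Promoter windows were searched for the EGR site GCGNGGGCG and for the E2F sites TTTCCCGC and TTTGGCGC, on both strands, because E2F factors are known to drive replication genes. The windows, from RefSeq on GRCm38.p6, span 250 bases before to 50 bases after each start and were given for 8 of the 10 genes, all but Tti2 and Pole. Of all 32851 windows, 5.55% held the EGR site and 1.56% an E2F site. Those of Telo2 (chr17:25115918-25116217), Tti1 (chr2:158028385-158028684), Pold1 (chr7:44548766-44549065) and Pold3 (chr7:100121453-100121752) are shown, all read 5′ to 3′ on the minus strand, as the genes that were lower and the members with a match, with every match in capitals.
Telo2: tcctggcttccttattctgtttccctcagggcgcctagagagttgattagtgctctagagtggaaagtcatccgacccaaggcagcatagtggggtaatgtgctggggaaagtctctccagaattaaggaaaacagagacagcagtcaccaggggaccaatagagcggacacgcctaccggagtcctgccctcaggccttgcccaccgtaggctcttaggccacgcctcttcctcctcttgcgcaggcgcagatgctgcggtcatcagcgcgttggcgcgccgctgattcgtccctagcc
Tti1: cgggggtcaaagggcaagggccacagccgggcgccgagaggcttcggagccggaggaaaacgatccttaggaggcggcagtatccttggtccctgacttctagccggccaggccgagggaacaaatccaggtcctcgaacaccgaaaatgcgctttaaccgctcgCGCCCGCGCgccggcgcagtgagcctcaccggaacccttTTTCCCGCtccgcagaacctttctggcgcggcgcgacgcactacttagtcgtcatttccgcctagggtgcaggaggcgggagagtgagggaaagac
Pold1: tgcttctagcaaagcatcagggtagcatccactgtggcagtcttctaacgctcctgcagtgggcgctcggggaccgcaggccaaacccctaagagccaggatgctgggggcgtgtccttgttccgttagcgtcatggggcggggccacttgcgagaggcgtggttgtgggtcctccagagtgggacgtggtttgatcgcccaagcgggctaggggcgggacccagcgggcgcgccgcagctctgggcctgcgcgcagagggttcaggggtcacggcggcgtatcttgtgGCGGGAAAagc
Pold3: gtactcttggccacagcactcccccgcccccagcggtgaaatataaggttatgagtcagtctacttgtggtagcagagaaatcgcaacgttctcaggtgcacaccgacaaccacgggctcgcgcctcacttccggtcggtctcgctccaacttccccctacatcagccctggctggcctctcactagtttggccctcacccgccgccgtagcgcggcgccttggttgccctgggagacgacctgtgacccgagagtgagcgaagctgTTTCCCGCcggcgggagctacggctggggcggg
The single EGR match among the members was in Tti1, at bases -85 to -77 from the start, and Tti1 also had an E2F match at bases -46 to -39. Pold1 had 1 E2F match at bases 40 to 47 and Pold3 had 1 at bases 18 to 25. Neither Telo2 window and none of those of Pold2, Atm, Atr and Mtor had a match to either motif. A match describes the letters alone, and no binding was measured here.

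Telo2 (ENSMUSG00000024170, chr17:25099570-25115967, minus strand) encodes the TELO2 subunit of the TTT complex. Its level was 26.7, 24.3 and 29.8 CPM in the 3 female and 30.9, 32.8 and 31.7 CPM in the 3 male Egr1cKO mice. In Egr1fNesCre- mice it ran from 35.3 to 42.6 CPM with a median of 37.7, in Egr1wtNesCre- mice from 34.6 to 40.3 CPM with a median of 37.3, and in Egr1wtNesCre+ mice from 30.6 to 41.2 CPM with a median of 37.2. All 6 Egr1cKO mice were below every Egr1fNesCre- and every Egr1wtNesCre- mouse, where 0.282% and 0.155% of all tested genes showed such a separation downward, and 3 of 6 were below all 18 other mice. The mean was 29.4 ± 3.24 CPM (SD, n = 6) in Egr1cKO and 37.4 ± 2.85 CPM (SD, n = 18) in the other mice, a log2FC of -0.34 (SE 0.0632). Against the single control genotypes the log2FC of Telo2 was -0.38, -0.32 and -0.35 for Egr1fNesCre-, Egr1wtNesCre+ and Egr1wtNesCre-.

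No call was made for the partners of Telo2. Tti1 (chr2:157981803-158028433), which binds TELO2 directly, ran from 16.8 to 23.4 CPM with a median of 21.8 in Egr1cKO mice and from 17.1 to 24.6 CPM with a median of 20.2 in the other 18. Its log2FC was 0.05 (SE 0.0727, adjusted p = 0.785 by edgeR's quasi-likelihood test), with a 95% interval of -6.83% to 14.5%. The point estimate of Telo2 lies outside the interval of this fit, but Telo2 was chosen for its fall, so its estimate can be too large. With the long-gene mean described further on as a covariate, Tti1 was at -0.09 against the 18 mice and at -0.15 against Egr1fNesCre-. Tti2 (chr8:31150315-31164702), the third subunit, ran up to 18.7 CPM in Egr1cKO mice and from 12.7 to 19.2 CPM in the others, with medians of 17.8 and 15.8 CPM. Its log2FC was 0.13 (SE 0.0705, adjusted p = 0.373) with an interval of -0.885% to 21.1%, and 1 of 6 Egr1cKO mice was below the mean of the others. Tti2 shares 14.59% of its exonic length with Mak16 on the opposite strand, and the libraries do not keep strand, so reads of these 2 genes cannot be told apart there.

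**Figure D1:**
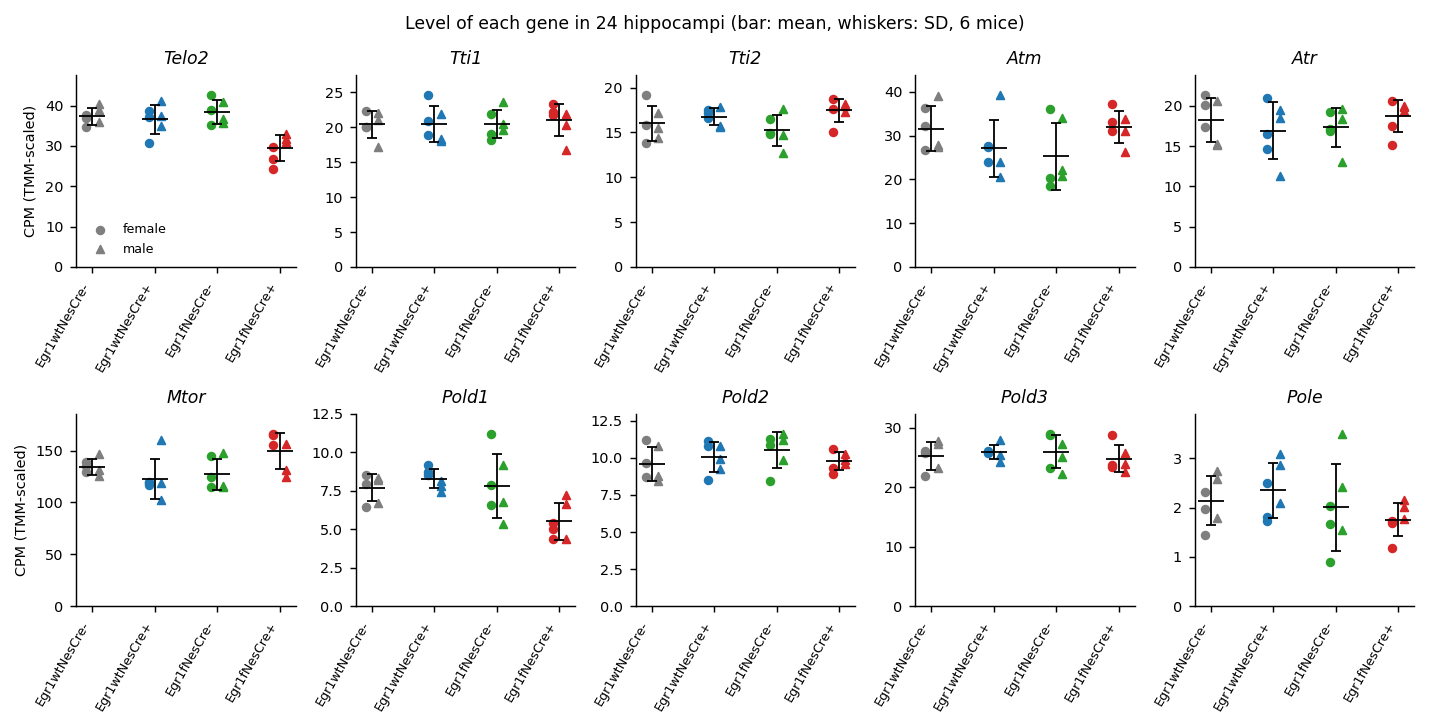
Level of each gene in CPM (y axis, from 0) for the 4 genotypes (x axis), with circles for females, triangles for males, and the mean with its SD over 6 mice. Telo2 lies at 24.3 to 32.8 CPM in Egr1cKO (Egr1fNesCre+) mice and at 30.6 to 42.6 CPM in the others, while Tti1, Pold2 and Pold3 overlap throughout.

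No client kinase was called in the comparisons of Egr1cKO mice. Their log2FC was above 0 in all 4 comparisons as fitted, but with the long-gene mean described further on as a covariate it was below 0 for Atm and Atr in all 4 and for Mtor against Egr1fNesCre- (-0.01). For Atm against Egr1wtNesCre- it also turned, to -0.01 without the mice rich in choroid plexus markers and to as low as -0.04 on leaving out 1 mouse. Mtor (chr4:148448611-148557683), the catalytic subunit of both mTOR complexes, was at 165, 165 and 155 CPM in female and at 156, 131 and 125 CPM in male Egr1cKO mice, against 103 to 159.8 CPM with a median of 125 in the other 18. In Egr1cKO mice 5 of 6 values were above the mean of the others, and the ranges overlapped. The log2FC was 0.23 (SE 0.0729, unadjusted p = 0.00372, adjusted p = 0.204), and it was 0.23, 0.28 and 0.15 against Egr1fNesCre-, Egr1wtNesCre+ and Egr1wtNesCre-, with adjusted p = 0.262, 0.359 and 0.689. Atm (chr9:53439149-53536740), the kinase that answers DNA double-strand breaks, ran from 26.2 to 37.3 CPM in Egr1cKO mice, with a median of 32.0. Its spread was wider in the 18 others, from 18.5 to 39.2 CPM with a median of 27.5. The log2FC of Atm was 0.20 (SE 0.132, adjusted p = 0.480), 0.33 against Egr1fNesCre- (adjusted p = 0.312) and 0.02 against Egr1wtNesCre- (adjusted p = 0.985). Atr (chr9:95857597-95951781), which answers stalled replication forks, ran from 15.2 to 20.6 CPM in Egr1cKO mice and from 11.3 to 21.3 CPM in the others. Its log2FC was 0.10 (SE 0.102, adjusted p = 0.658), with an interval of -7.18% to 24.1%.

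For Mtor and Atm the calls depended on single mice. Without the male Egr1wtNesCre+ mouse of replicate 2, which had the highest Mtor (159.8 CPM) and Atm (39.2 CPM) of its genotype, both genes passed against Egr1wtNesCre+ (log2FC 0.39, adjusted p = 0.0144 for Mtor and 0.40, adjusted p = 0.0269 for Atm). In that fit 795 genes were called in all, against 1 of 17909 with every mouse kept. Without the male Egr1fNesCre- mouse of replicate 1, Mtor passed against Egr1fNesCre- (log2FC 0.31, adjusted p = 0.0486). There 327 genes were called in all, against 4 of 18074 with every mouse kept. With no filter on low counts Atm passed against Egr1fNesCre- (adjusted p = 0.0217) and Mtor against Egr1wtNesCre+ (adjusted p = 0.0461). That setting called 808 genes in all against Egr1fNesCre-, and many more than the main fit against Egr1wtNesCre+ too, as counted in the last section.

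Pold1 (ENSMUSG00000038644, chr7:44532746-44548849, minus strand) encodes the catalytic subunit of polymerase delta. It was at 5.41, 4.39 and 5.04 CPM in female and at 7.25, 6.64 and 4.39 CPM in male Egr1cKO mice. The other genotypes ran from 5.37 to 11.2 CPM (Egr1fNesCre-), 7.46 to 9.16 CPM (Egr1wtNesCre+) and 6.47 to 8.53 CPM (Egr1wtNesCre-), with medians of 7.32, 8.34 and 8.05. All 6 Egr1cKO mice were below all Egr1wtNesCre+ mice, a separation that 0.218% of tested genes showed downward, and 3 of 6 were below all 18 others. The mean was 5.52 ± 1.19 CPM (SD, n = 6) against 7.94 ± 1.30 CPM (SD, n = 18), a log2FC of -0.52 (SE 0.123).

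The other polymerase subunits gave no call. Pold2 (chr11:5872180-5878292), the subunit that joins POLD1 to the rest of the holoenzyme, ran from 8.94 to 10.6 CPM in Egr1cKO mice and from 8.43 to 11.6 CPM in the others, with a log2FC of -0.04 (SE 0.0791, adjusted p = 0.844) and an interval of -12.9% to 8.97%. Pold3 (chr7:100082111-100121565), an accessory subunit with a PCNA-binding motif, ran from 22.7 to 28.9 CPM against 21.8 to 28.9 CPM, with a log2FC of -0.05 (SE 0.0622, adjusted p = 0.730) and an interval of -11.5% to 5.52%. The point estimate for Pold1 lies outside both intervals, but Pold1 was chosen for its fall, so its estimate can be too large. Pole (chr5:110286306-110337474), the catalytic subunit of polymerase epsilon, was the least abundant member, at 1.18 to 2.16 CPM in Egr1cKO mice and 0.895 to 3.48 CPM in the others. All 6 Egr1cKO mice were below the mean of the others for Pole, yet within their range, and the log2FC of -0.30 (SE 0.203, adjusted p = 0.487) had an interval of -39.0% to 8.26% that a drop as large as that of Pold1 does not leave.

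**Figure D2:**
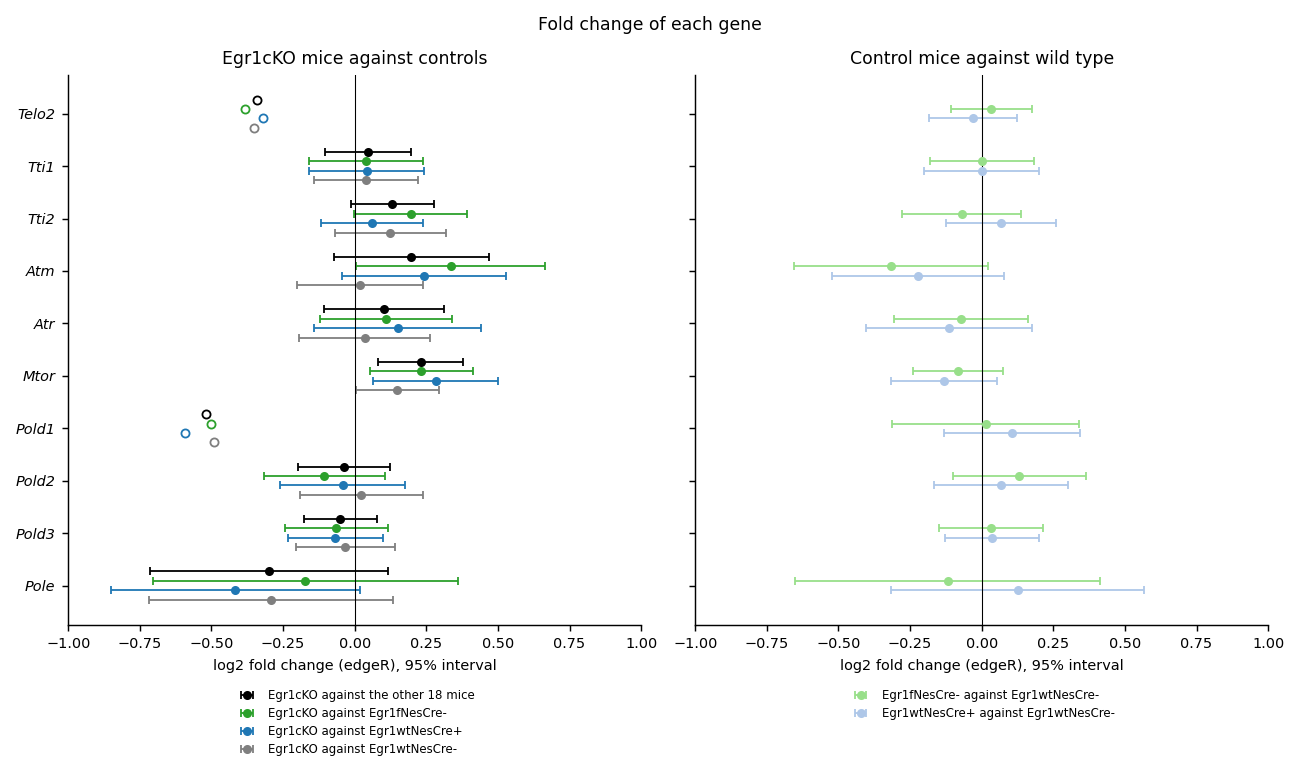
The log2 fold change of each gene from edgeR (x axis), for Egr1cKO mice against controls (left) and for single-factor controls against wild type (right), with bars for 95% intervals. Open circles without intervals mark Telo2 and Pold1 in the contrasts that chose them, between -0.32 and -0.59, while the intervals of the other genes cross 0 except those of Mtor and, against Egr1fNesCre-, Atm.

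Across the 8 genes other than Telo2 and Pold1, edgeR called 0 in Egr1cKO against the other 18 mice, where it called 0.00543% of 18433 genes. At an unadjusted p under 0.05 it was 1 of 8 (Mtor), where 15.1% of all tested genes were, and DESeq2 called 0. Against Egr1fNesCre- edgeR called 0 of the 8 (0.0221% of 18074 genes), with 2 at an unadjusted p under 0.05 (Mtor and Atm, beside 15.8% of all genes) and 0 by DESeq2. Against Egr1wtNesCre+ (0.00558% of 17909 genes) and Egr1wtNesCre- (0.0111% of 18062 genes) it was 0 of 8 by both tools, with Mtor as the 1 gene at an unadjusted p under 0.05 in each, beside 12.1% and 7.23% of all genes. In the full set of 10, 5 had a log2FC above 0 and 5 below 0 against the 18 mice, with a median of 0.00 where that of all tested genes was -0.01. Telo2 and Pold1, chosen for their fall, are among those below 0, beside Pold2, Pold3 and Pole. The split and the median are thus partly set by the choice of genes. These 4 comparisons share the Egr1cKO mice and are not independent.

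In the interaction of floxP and Nestin-Cre, the difference between the Cre effect in floxed and in wild-type mice, edgeR called 0 of the 8 and 0.00533% of 18766 genes, with 2 of the 8 at an unadjusted p under 0.05, where 18.8% of all genes were. DESeq2 called 0 of the 8, with a lowest adjusted p of 0.0516, near the threshold. With no filter on low counts edgeR called Atm and Mtor (lowest adjusted p = 0.00245), where many more genes were called in all, as counted in the last section. The log2FC was 0.56 for Atm (SE 0.224, adjusted p = 0.183) and 0.37 for Mtor (SE 0.130, adjusted p = 0.153). Without the male Egr1wtNesCre+ mouse of replicate 2 it was 0.71 for Atm (adjusted p = 0.0368) and 0.47 for Mtor (adjusted p = 0.0195). In that fit 1482 genes were called in all, against 1 of 18766 with every mouse kept. Mean Atm was 32.0 CPM in Egr1cKO and 31.6 CPM in Egr1wtNesCre- mice, beside 25.3 CPM in Egr1fNesCre- and 27.1 CPM in Egr1wtNesCre+ mice. The long-gene mean described further on was not fitted as a covariate for the interaction. For Tti1, Tti2, Pold2, Pold3 and Pole the log2FC with every mouse kept was 0.04, 0.13, -0.17, -0.09 and -0.30, with adjusted p from 0.540 to 0.889. Telo2 and Pold1 stood at -0.35 (SE 0.105) and -0.60 (SE 0.215), given without a test as before.

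No member was called for Nestin-Cre alone or for the floxed allele alone. In Egr1wtNesCre+ against Egr1wtNesCre- mice edgeR called 0 of 10 members and 0.0% of 18022 genes, with 0 members at an unadjusted p under 0.05 and 0 by DESeq2. Without the male Egr1wtNesCre+ mouse of replicate 2, 201 genes were called for Cre alone, again 0 of them members. In Egr1fNesCre- against Egr1wtNesCre- mice it was again 0 of 10 and 0.0% of 18220 genes, with 0 members at an unadjusted p under 0.05 and 0 by DESeq2. Telo2 had a log2FC of -0.03 for Cre alone (interval -12.0% to 8.92%) and 0.03 for the floxed allele alone (interval -7.22% to 12.9%). Pold1 had 0.11 (interval -8.65% to 26.8%) and 0.01 (interval -19.5% to 26.7%), so that a drop of up to 19.5% in Pold1 with the floxed allele lies within the interval. Atm was lowest of the members in both, at -0.22 (adjusted p = 0.764) and -0.32 (adjusted p = 0.535). Mouse numbers of Egr1f and Egr1wt mice come from separate ranges, so a difference between these alleles cannot be told apart from one between the series of mice.

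No member was called for sex. Between females and males over all 24 mice edgeR called 0 of 10 members and 0.0746% of 18766 genes, with 1 member (Pole) at an unadjusted p under 0.05, beside 5.92% of all genes, and 0 by DESeq2. For females against males the log2FC of Pole was -0.45 (SE 0.157, unadjusted p = 0.00757, adjusted p = 0.697). Whether the sexes differed more in Egr1cKO than, on average, in the other 3 genotypes was tested as a contrast of group means. It was called for 0 of the 8 genes other than Telo2 and Pold1 and for 0.00507% of 19742 genes. Of the 8, 0 were at an unadjusted p under 0.05, where 6.09% of all genes were, and DESeq2 called 0. For Mtor that difference was 0.27 (SE 0.148, adjusted p = 0.868). Telo2 stood at -0.20 and Pold1 at -0.44 (SE 0.247), given without a test since their fall in Egr1cKO mice chose them.

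Other genes of the pathways were read from fixed lists in Egr1cKO against the 18 mice, and edgeR called 0 of them, with the count at an unadjusted p under 0.05, which 15.1% of all tested genes had, given for each list. Of the R2TP and HSP90 chaperones, which work with TTT, 2 of 13 had a log2FC above 0 and 11 below, with a median of -0.07 and 2 at that p. The lowest was Uxt, an R2TP-associated prefoldin, at -0.25 (adjusted p = 0.525) and the highest Hsp90ab1, the constitutive HSP90, at 0.06 (adjusted p = 0.525). The remaining PIKK genes were all above 0, from 0.04 for Smg1, the nonsense-mediated decay kinase (adjusted p = 0.756), to 0.12 for Prkdc, the catalytic subunit of DNA-PK (adjusted p = 0.380), with Trrap between them and 0 at that p. Of 16 partner subunits of the kinases 11 were above 0, with a median of 0.06 and 1 at that p, from Xrcc6, a Ku subunit, at -0.19 (adjusted p = 0.242) to Deptor, an mTOR inhibitor, at 0.31 (adjusted p = 0.409). Of 14 substrates and effectors 10 were above 0, with a median of 0.05 and 1 at that p, from Clspn at -0.30 (adjusted p = 0.645) to Chek1 at 0.18 (adjusted p = 0.772), both of the ATR checkpoint branch.

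The medians of the replication lists were below 0. Of 8 other subunits of the replicative polymerases 5 were below 0, with a median of -0.11 and 1 at that p, from Prim1, a primase subunit, at -0.31 (adjusted p = 0.375) to Pola1 at 0.15 (adjusted p = 0.521). Of 21 replisome genes tested (of 22) 16 were below 0, with a median of -0.07 and 0 at that p, from Gins3 at -0.24 (adjusted p = 0.455) to Gins4 at 0.08 (adjusted p = 0.667). Of 14 repair and mitochondrial polymerases 11 were below 0, with a median of -0.06 and 1 at that p, from Poln at -0.31 (adjusted p = 0.744) to Rev3l, the catalytic subunit of polymerase zeta, at 0.29 (adjusted p = 0.240). The median over all tested genes was -0.01, and DESeq2 also called 0 genes of these pathway lists.

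Markers of cell types that these samples could hold were read beside the members. Proliferating cell markers summed to 11.8 to 14.6 CPM in Egr1cKO mice and to 10.9 to 15.7 CPM in the other 18, with Cdk1, Aurkb and Bub1 of the 9 under 1 CPM in every mouse. Of the 8 of these markers tested, 6 had a log2FC below 0, with a median of -0.19 where that of all tested genes was -0.01. Their part in the level of the polymerase genes was not tested. Astrocyte markers summed to 1366 to 1809.7 CPM in Egr1cKO mice (5 of 5 with a log2FC above 0) against 1140.0 to 1650.0 CPM, and oligodendrocyte lineage markers to 3047 to 4342 CPM (4 of 6 below 0) against 3705 to 5639 CPM. Aqp4, the astrocyte water channel, was the 1 gene of any list that edgeR called in the comparisons of Egr1cKO mice, and it rose against Egr1fNesCre- (log2FC 0.82, adjusted p = 0.00754) and Egr1wtNesCre- (0.68, adjusted p = 0.0103). Microglia markers summed to 205 to 239 CPM (4 of 5 above 0) against 149 to 218 CPM, and neuroblast and progenitor markers to 214 to 263 CPM (7 of 10 above 0) against 187 to 288 CPM. No gene of these lists was at 0 counts in all mice, and their part in the members' values was not tested. Meningeal fibroblast markers were at 44.6 to 96.0 against 21.6 to 114 CPM (6 of 7 above 0, median log2FC 0.51). Blood markers were at 29.1 to 66.8 against 32.3 to 95.5 CPM (4 of 5 below 0, median -0.28). Striatal markers were at 52.7 to 129 against 42.8 to 97.8 CPM (6 of 6 tested above 0, median 0.27). Thalamic markers were at 55.6 to 75.3 against 49.5 to 76.4 CPM (3 of 6 above 0, median -0.01). The summed ranges of all these lists overlapped between Egr1cKO and the 18 mice, and the part of these lists was not tested either. At an unadjusted p under 0.05 by edgeR, which 15.1% of all tested genes had, were 5 of 6 oligodendrocyte lineage and 3 of 5 microglia markers. It was 2 of 5 astrocyte, 3 of 10 neuroblast and progenitor, 3 of 7 meningeal fibroblast and 2 of 5 blood markers. For proliferating cell, striatal and thalamic markers it was 1 each, of 8, 6 and 6 tested. In bulk tissue fewer cells of a type and less RNA per cell cannot be told apart. The samples are also labelled as endocrine cells, but the 6 pituitary hormone genes found summed to 0.898 to 3.84 CPM and 10 hippocampal markers to 1042 to 2007 CPM. Choroid plexus markers were above 500 CPM in 4 mice (1 Egr1cKO, 2 Egr1fNesCre- and 1 Egr1wtNesCre+). Without those 4 mice Telo2 stood at a log2FC of -0.39, Pold1 at -0.57 and Mtor at 0.24 (adjusted p = 0.158) against the remaining controls.

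Between genes, levels were compared per kilobase of exonic length (GENCODE M21) in the 6 Egr1wtNesCre- mice. This length joins all annotated exons of a gene, from 1896 bases for Pold2 to 23629 for Atr. It can exceed that of the transcripts present, which was not measured, so the order depends on the annotation. Mtor was highest at 13.3 ± 0.766 CPM per kb (SD, n = 6). Pold3, Pold2, Tti1 and Telo2 followed at 5.51, 5.06, 4.94 and 4.67 CPM per kb, each overlapping the next in range. Atm and Tti2, at 3.06 and 2.65 CPM per kb, overlapped each other, and Pold1 (1.58), Atr (0.775) and Pole (0.192 CPM per kb) each lay apart from their neighbours. By this measure Tti2 was the lowest of the TTT genes and Pold1 of the polymerase delta genes.

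Whether members moved together was read over the 18 mice that are not Egr1cKO. These mice are one side of the contrast that chose Telo2 and Pold1. Of 45 pairs, 2 had an adjusted permutation p of at most 0.05 by Pearson's r of log2(CPM + 1) and 3 by Spearman's rho. Atm and Mtor were positively related (r = 0.82, adjusted p = 0.0009, rho = 0.80, adjusted p = 0.00607), with r = 0.79 without the 2 mice farthest from the median of Atm and r = 0.83 within the 12 Egr1wt mice. Pold3 and Atm were negatively related (r = -0.82, adjusted p = 0.0009, rho = -0.78, adjusted p = 0.00607), with r = -0.81 without the 2 farthest mice. By rho alone Pold3 and Atr also passed (rho = -0.74, adjusted p = 0.0115, r = -0.64, adjusted p = 0.0588). No relation of Telo2 with a partner passed. With Tti1 its r was -0.53 (adjusted p = 0.0941, rho = -0.43, adjusted p = 0.218). That r was -0.22 without the 2 mice farthest from the median of Telo2, -0.46 within the 12 Egr1wt mice and -0.76 within the 6 Egr1fNesCre- mice. With Tti2 the r of Telo2 was -0.31 (adjusted p = 0.359, rho = -0.23, adjusted p = 0.542). Telo2 and Pold1 had r = 0.14 (adjusted p = 0.684, rho = 0.11, adjusted p = 0.740). The genes most like Telo2 over these mice, among 19741 others, were Capn15 (r = 0.84), Slc7a6 (r = 0.81) and Thbs3 (r = 0.81), where Tti2 ranked 16060 and Tti1 18862. Those most like Pold1 were Angptl1 (r = 0.81), Fer1l5 (r = 0.77) and mt-Rnr2 (r = 0.77), where Pold3 ranked 280 (r = 0.59).

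**Figure D3:**
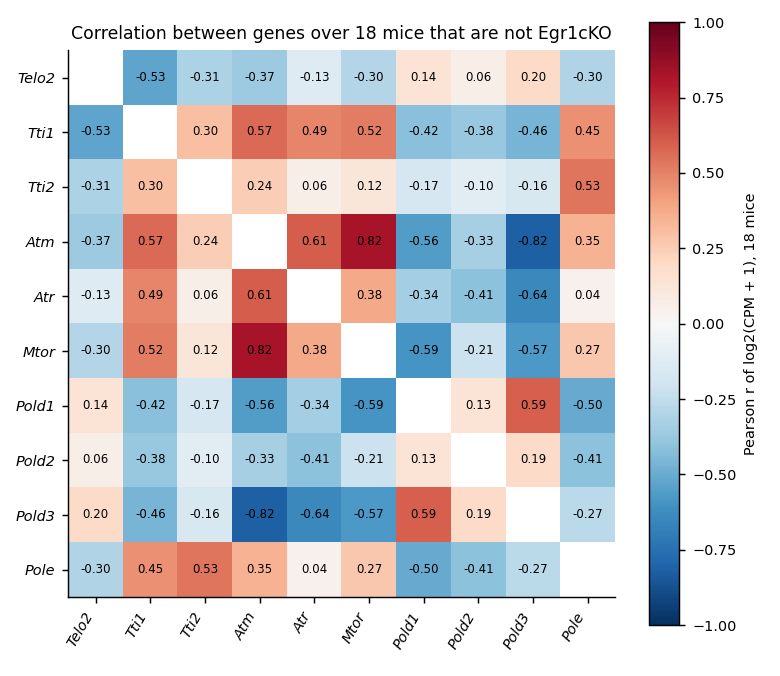
Pearson's r of log2(CPM + 1) between each pair of members over the 18 mice that are not Egr1cKO, on a colour scale from -1 to 1. The darkest cells are Atm with Mtor (0.82) and Atm with Pold3 (-0.82), and Telo2 is at -0.53 with Tti1 and 0.14 with Pold1.

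A mean over genes with long genomic spans ran with several members, and what it stands for was not tested. For each mouse the mean deviation of log2(CPM + 1) was taken over the 1522 protein-coding genes with the longest 10% of genomic spans (at least 139.9 kb), a measure chosen after the values were seen and that contains no member. Its median was 0.11 in Egr1cKO, -0.09 in Egr1fNesCre-, -0.08 in Egr1wtNesCre+ and 0.02 in Egr1wtNesCre- mice. Over the 18 mice that are not Egr1cKO, 7 of 10 members were related to it at an adjusted permutation p of at most 0.05 by Pearson's r, and 6 of 10 by Spearman's rho. Atm (r = 0.93, rho = 0.91) and Mtor (r = 0.85, rho = 0.82) were positively related to it, with adjusted p = 0.0001 for both by r, and 0.0001 and 0.0003 by rho. For Atm this is the smallest that 100000 permutations can give. Tti1 (r = 0.69, rho = 0.68) and Atr (r = 0.69, rho = 0.68) followed, with adjusted p = 0.0041 and 0.00277 by r. Pold3 (r = -0.73, rho = -0.70), Pold1 (r = -0.61, rho = -0.60) and Telo2 (r = -0.50, rho = -0.46) were negatively related to it, with adjusted p = 0.0023, 0.0102 and 0.0487 by r, and 0.00433, 0.0171 and 0.0784 by rho. Without the 2 mice farthest from the median of the long-gene mean, r was 0.90 for Atm, 0.79 for Mtor, -0.69 for Pold3, -0.59 for Pold1 and -0.55 for Telo2. These 5 kept their sign within the 12 Egr1wt and within the 6 Egr1fNesCre- mice. The library is shared by both sides of these relations.

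With this measure as a covariate in Egr1cKO against the 18 mice, the log2FC of Mtor was 0.04 (SE 0.0516, adjusted p = 0.945) in place of 0.23, and that of Atm -0.15 (adjusted p = 0.804) in place of 0.20. Telo2 was at -0.26 (SE 0.0645) in place of -0.34 and Pold1 at -0.35 (SE 0.133) in place of -0.52. Against Egr1fNesCre- mice alone Pold1 was at -0.15 (SE 0.235) with the covariate, in place of -0.50, and Telo2 at -0.28 (SE 0.0990) in place of -0.38. Against Egr1wtNesCre+ mice Telo2 was at -0.18 (SE 0.0978) in place of -0.32 and Pold1 at -0.62 (SE 0.204) in place of -0.59. Against Egr1wtNesCre- mice, whose long-gene mean was nearest to that of Egr1cKO mice, Telo2 stayed at -0.35 (SE 0.0805) and Pold1 at -0.49 (SE 0.183).

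**Figure D4:**
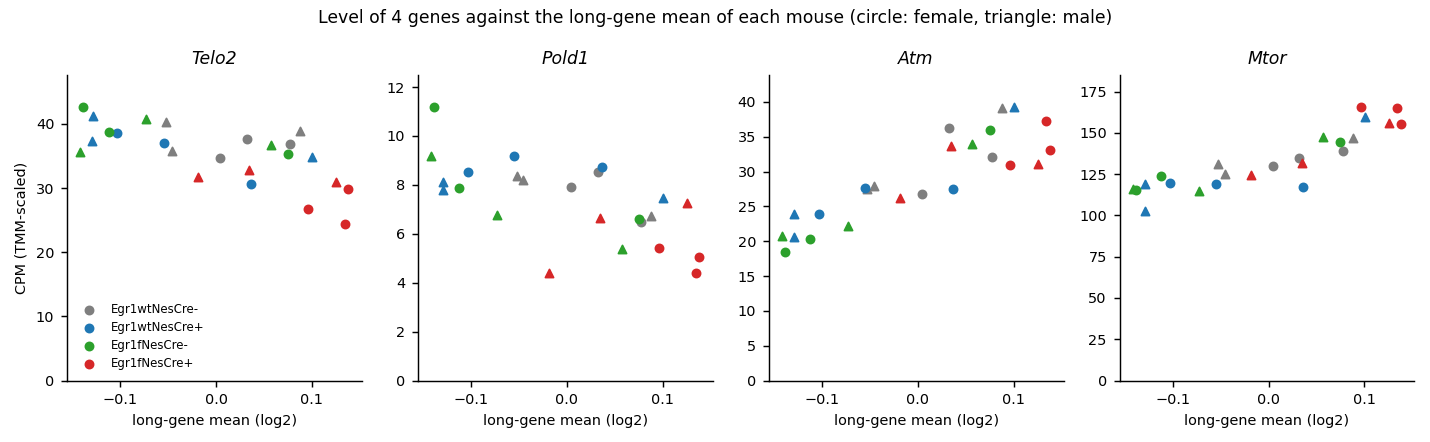
Level of Telo2, Pold1, Atm and Mtor in CPM (y axis, from 0) against the long-gene mean of each mouse (x axis, log2), coloured by genotype. Over the 18 other mice Atm and Mtor are higher toward the right (r = 0.93 and 0.85), and the Egr1cKO mice have a median of 0.11, with 2 males lower at 0.03 and -0.02, within the range of the others.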

How the data were processed

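Hippocampal RNA of 24 mice was sequenced from non-stranded, poly(A)-selected libraries in paired-end mode. The authors trimmed the reads, mapped them to mm10 (GRCm38) and counted them per gene with STAR, and deposited raw counts for 36605 genes without normalization. The submitters' processing notes name Trim Galore 3.8.2 and STAR 2.7.9, while the study's methods name other versions. The annotation used for counting is not given in the sources used here. Totals ran from 18025168 to 34955004 counts per mouse (median 22743950.5), which is the depth behind every value, and all columns were used.

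Symbols and positions came from GENCODE M21 on GRCm38 (36493 genes with a symbol). Counts were tested in R 4.3.3 with edgeR 4.0.16 (TMM, filterByExpr with a minimum count of 10, quasi-likelihood F test, Benjamini-Hochberg over all genes tested). Genotypes were compared at an adjusted p threshold of 0.05 together with a minimum fold change of 1.2, and the p threshold alone was used for terms of the model with floxP, Nestin-Cre, their interaction and sex. Comparisons of 2 genotypes had sex as a covariate. The SE of a log2FC was derived from its F statistic. DESeq2 1.42.0 was an alternative, beside other normalization, no filter, other covariates, a replicate block and leaving out each mouse. The fits were tested on simulated data. Permutation tests of correlations were two-sided with 100000 draws.

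The members and the gene lists were chosen with earlier results of these data known. All members were named in every comparison, and from each list the called genes and those with the highest and lowest log2FC. No 2 mice of a group differed by less than sampling noise (chi-square per degree of freedom at least 4.70 over 24 pairs). Each mouse has its own number in the labels, and p-values measure the spread between these mice.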

Additional observations from a re-analysis of the deposited data

Results flagged for a closer look

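Of 40 groups (10 members in 4 genotypes of 6 mice), 1 held a mouse far from the others by Dixon's criterion, which flags about 5% of such groups by chance. Mtor was at 159.8 CPM in the male Egr1wtNesCre+ mouse of replicate 2, and the nearest other mouse of that genotype was at 119.5 CPM, a gap of 0.705 of the range, above the critical value for 6 mice. The same mouse had the highest Atm (39.2 CPM) and the highest long-gene mean (0.10) of its genotype.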

How the results depend on the processing

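edgeR called 0 members in every comparison. Calls of Telo2 and Pold1 come from the contrast that chose them and support nothing. Against the 18 mice DESeq2 called 2 members (Telo2, Pold1), and 1 (Telo2) was called with no filter, with a replicate block, with sex as a covariate and without the mice rich in choroid plexus markers. Leaving out 1 mouse gave 0 to 1, with Telo2 called without male Egr1cKO replicate 2 or 3 or female Egr1wtNesCre+ replicate 1. Against Egr1fNesCre- DESeq2 called 1 and no filter 2 (Telo2, Atm), with 0 to 2 on leaving out 1 mouse. Against Egr1wtNesCre+ no filter gave 2 (Pold1, Mtor) and left-out mice 0 to 4. Against Egr1wtNesCre- DESeq2 and no filter each gave 1 (Telo2), and left-out mice 0. The interaction had 2 (Atm, Mtor) with no filter and 0 to 3 with left-out mice. Deviations of mice with the same sex and number correlated at -0.257 to 0.303 over 36 pairs, 7 above 0.1, so numbers do not pair mice, and the replicate block changed no other call of a member. With the long-gene mean as a covariate, chosen after seeing the data, signs turned against the 18 mice for Tti1 (-0.0863), Pold2 (0.0303), Pold3 (0.0433), Atm (-0.152) and Atr (-0.0569). They turned against Egr1fNesCre- for Tti1 (-0.153), Pold3 (0.0793), Atm (-0.122), Atr (-0.0111) and Mtor (-0.0122), against Egr1wtNesCre+ for Tti1 (-0.139), Pold2 (0.0357), Atm (-0.103) and Atr (-0.0425), and against Egr1wtNesCre- for Tti1 (-0.0367), Atm (-0.161) and Atr (-0.0619). Without choroid-rich mice, also chosen after seeing the data, Atm was at -0.00673 against Egr1wtNesCre-. Left-out mice turned signs near 0, with log2FC against Egr1wtNesCre- of -0.0401 to 0.108 (Atm), -0.0148 to 0.107 (Atr), -0.00905 to 0.0759 (Pold2) and -0.0872 to 0.00115 (Pold3), against Egr1fNesCre- of -0.306 to 0.00660 (Pole) and -0.000984 to 0.106 (Tti1), and -0.00537 to 0.102 for Tti1 in the interaction. The cause was not tested. Of all genes, in the order of the comparisons with the 18 mice, Egr1fNesCre-, Egr1wtNesCre+ and Egr1wtNesCre-, edgeR called 1, 4, 1 and 2, DESeq2 42, 79, 30 and 20, and edgeR without the filter 7, 808, 529 and 251. The interaction had 1, 335 and 1173, Cre alone 0, 20 and 156, the floxed allele alone 0, 2 and 163, sex 14, 17 and 111, and the sex difference in Egr1cKO 1, 5 and 146. Leaving out 1 mouse moved these counts to at most 215 against the 18 mice (without male Egr1cKO replicate 3), 327 against Egr1fNesCre- (without male Egr1fNesCre- replicate 1), 18 against Egr1wtNesCre- (without male Egr1cKO replicate 3), and 795, 1482 and 201 against Egr1wtNesCre+, in the interaction and for Cre alone (without male Egr1wtNesCre+ replicate 2). They were at most 1 for the floxed allele alone and for the sex difference in Egr1cKO, and 15 for sex. The EGR site with T at its N was in 0.612% of promoter windows, against 5.55% with any base. At 0.895 to 3.48 CPM, Pole was the member whose level was measured least precisely.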
